A study of Mus musculus with 4 samples.

Results

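The 350 kb window chr18:9300000-9650000 (mouse build mm9), named here after the gene Ccny, holds a cluster of DNase I hypersensitive sites that were dense in both libraries from dexamethasone-treated cells and weak or unlisted in the others. All regions of 4 deposited lists that overlap this window were taken, 47 of 202687 regions in all. These were 8 of 65879 from untreated cells, 16 of 51251 after dexamethasone (Dex), 10 of 35496 after estradiol (E2) and 13 of 50061 after both (Dex+E2). Joining regions that overlap or touch gave 18 merged sites in the window, out of 103288 in the genome. The window was chosen because of its Dex densities in these libraries, so the contrasts between Dex and no Dex below are descriptions and carry no test.

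In DNase-seq, accessible chromatin is found where DNase I cuts most readily, and such places are often bound by regulatory proteins. The cells were 7438 cells, a mouse mammary line in which a tetracycline-regulated promoter drives fusions of the glucocorticoid receptor (GR) with GFP and of the estrogen receptor (ER) with Cherry. In all 4 groups, the untreated one included, tetracycline was withdrawn 24 h earlier so that both fusion proteins were made. Cells then received no hormone, 100 nM Dex, 100 nM E2, or 100 nM of each, for 30 min. With 1 library per group, no difference could be set against a spread between replicates. A density is an average over many cells, and more cells with an open site cannot be told apart from a more open site in each cell.

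GR is a transcription factor held inactive in the cytoplasm by chaperones until a ligand such as Dex binds, after which it enters the nucleus and binds DNA. Its binding often goes along with new or stronger DNase I hypersensitivity, and many of its sites lie far from the genes they act on. Ccny encodes cyclin Y, a membrane-anchored cyclin that activates the kinase CDK14 and takes part in Wnt signalling through phosphorylation of the co-receptor LRP6. In the RefSeq gene table used here, which is of build GRCm38.p6 and was used for names and order only, Gjd4 (a connexin) and Fzd8 (a Wnt receptor) lie before Ccny. Cetn1 (a centrin) and Colec12 (a scavenger receptor) follow it. Between Ccny and Cetn1 the table lists the long noncoding RNA Gm35458 and 4 pseudogenes. Gene positions in mm9 were not used here, so no site is assigned to a promoter, exon or intron, and RNA levels of these genes were not analysed here.

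Each region has a deposited maximum tag density, the height of its summit, and an average tag density over its length. The maxima were whole multiples of 1 step per library, read as the value of 1 tag, so that densities convert to tags and carry exact Poisson 95% intervals, which cover counting error only. These intervals do not allow for a maximum being picked within a listed region. A single tag was worth a density of 0.255 without hormone, 0.245 with Dex, 0.200 with E2 and 0.227 with Dex+E2. Across the 20687 merged regions found in all 4 lists, the medians of the maximum density were 30.1 (untreated), 14.7 (Dex), 10.2 (E2) and 15.4 (Dex+E2). The library medians thus lay at log2 -1.03, -1.56 and -0.96 of the untreated one for Dex, E2 and Dex+E2. Folds below are therefore relative to these medians unless said to be as deposited. Widths are end minus start, and the narrowest region in every list was 251 bp wide. An unlisted site did not pass the threshold of its library, and that is no measurement of closed chromatin.

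The cluster consisted of 7 merged sites within 24.7 kb, numbered C1 to C7 from the lower coordinate. Sites C1 to C3 formed a block of 9.60 kb, C1 at chr18:9485239-9487867, C2 at chr18:9488498-9491064 and C3 at chr18:9491174-9494839. After a gap of 8021 bp, C4 to C7 formed a block of 7.07 kb, C4 at chr18:9502860-9505598, C5 at chr18:9505696-9507093, C6 at chr18:9507173-9508278 and C7 at chr18:9508996-9509934. Within the blocks, gaps between neighbours ran from 80 to 718 bp. Another 3 sites, F1 to F3, flank the cluster and were in all 4 lists: F1 at chr18:9449178-9450816, F2 at chr18:9546199-9547158 and F3 at chr18:9551980-9553447. The other 8 sites of the window, W1 to W8, reached a maximum density of at most 15.6 in any library.

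**Figure D1:**
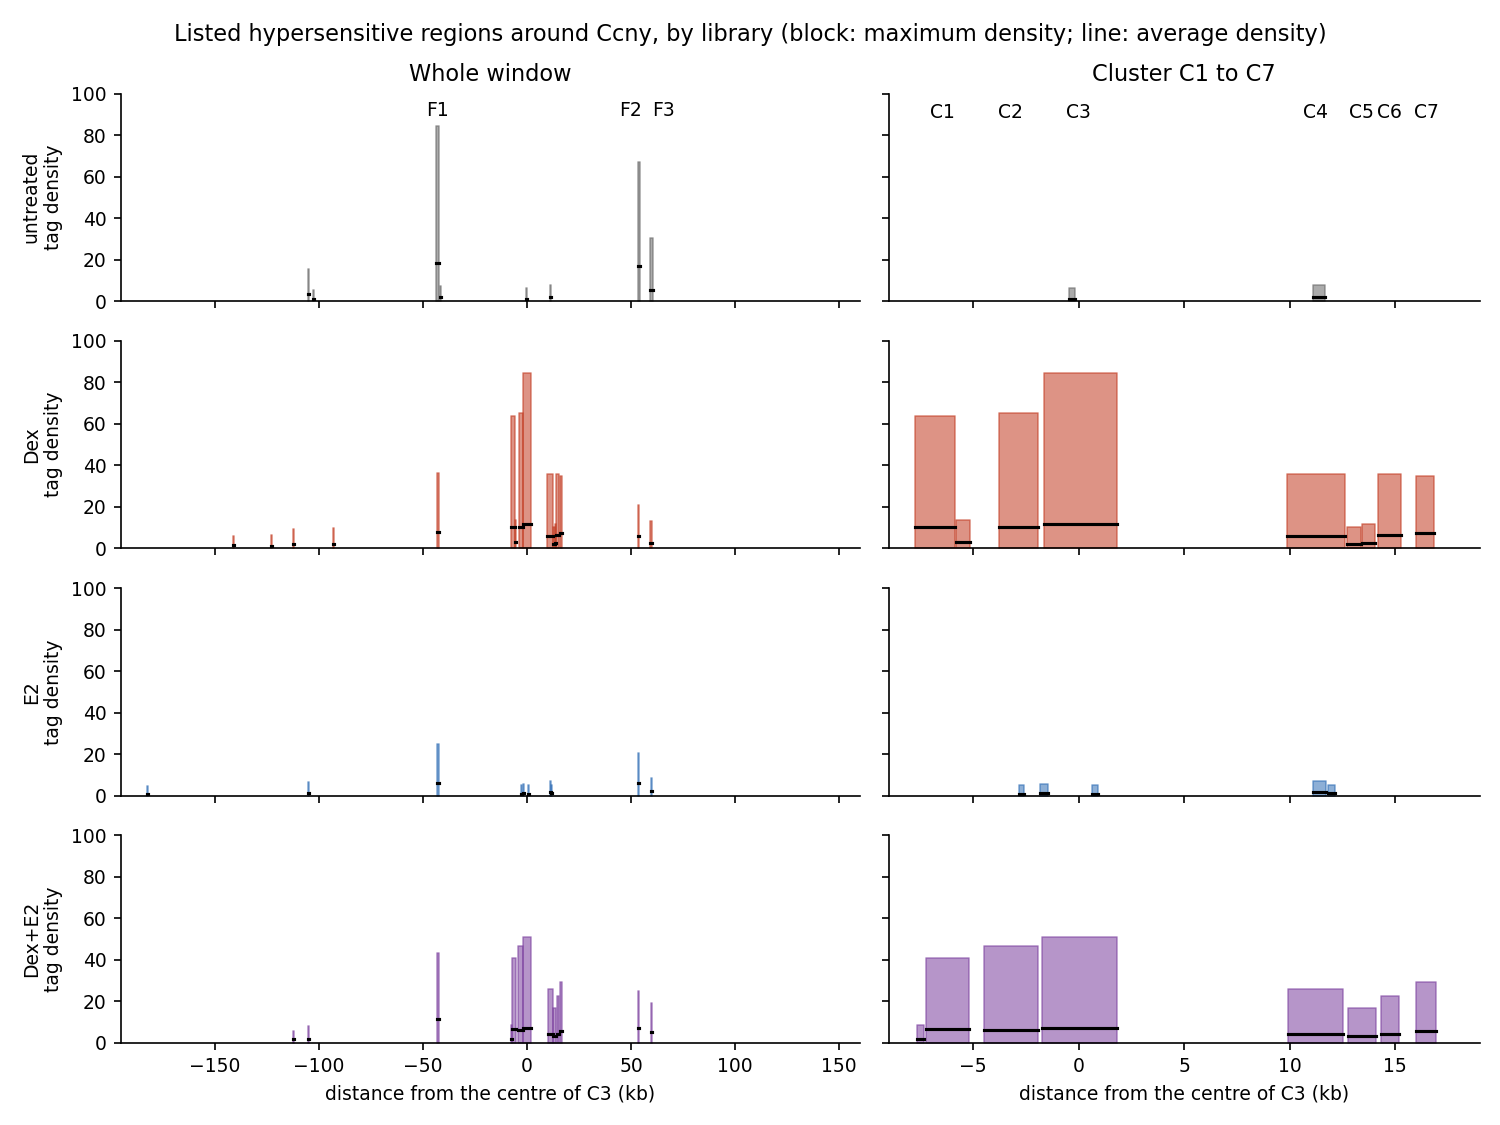
Listed regions in the window (left) and in the cluster (right) for the 4 libraries; the x axis is the distance in kb from the centre of C3, blocks reach the maximum tag density and black lines mark the average tag density, both as deposited. In the Dex and Dex+E2 libraries the tallest block is C3, at 84.5 and 51.0, whereas in untreated and E2 cells the tallest block is F1, at 84.2 and 24.8.

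C3 was the densest site of the window after Dex. Its maximum density was 6.12 (3.92 to 9.11) without hormone, 84.5 (75.8 to 93.9) with Dex, 5.40 (3.56 to 7.86) with E2 and 51.0 (44.6 to 58.2) with both. Both libraries with Dex lay far above both without it, and the counting intervals of the 2 kinds did not overlap. Because the window was chosen for its Dex densities, this is a description only. The Dex summit held 345 tags and the untreated one 24. The average density was 1.10 without hormone, 11.8 with Dex, 1.05 with E2 and 7.12 with both. The site also differed in extent: 251 bp were listed in untreated cells, 3495 bp after Dex, 642 bp in 2 regions after E2 and 3557 bp after Dex+E2. C3 was thus listed as a single broad region wherever Dex was given and as 1 or 2 small ones elsewhere. By width, its Dex region ranked 36 among 51251 regions and its Dex+E2 region 16 among 50061. By maximum density, the same regions ranked 310 and 1491.

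At its neighbour C2 no region was listed in untreated cells. The maximum density was 65.1 (57.5 to 73.5) with Dex, 5.00 (3.24 to 7.38) with E2 and 46.7 (40.6 to 53.6) with both. Average densities were 10.2, 0.93 and 6.38 in the same order, over 1846, 255 and 2561 bp. C2 therefore had its highest summit after Dex and its greatest width after Dex+E2. C1 was listed with Dex and Dex+E2 only, in 2 regions each. Its summit reached 63.7 (56.2 to 71.9) after Dex, in the 1895 bp region chr18:9485239-9487134 with an average density of 10.2. A smaller region beside it, chr18:9487201-9487867, reached 13.7 over 666 bp, with an average of 2.97. The 2 libraries divided this site differently. After Dex+E2 the main region, chr18:9485764-9487787, reached 41.1 (35.3 to 47.5) over 2023 bp at an average of 6.78, and a region of 360 bp at the opposite end reached 8.39 at an average of 2.08.

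The second block was lower than the first in both Dex libraries. C4 was the only one of its sites in all 4 lists, with 7.91 (5.37 to 11.2) without hormone, 36.0 (30.4 to 42.3) with Dex, 7.20 (5.04 to 9.97) with E2 and 26.1 (21.5 to 31.3) with both. As at C3, the untreated and E2 values overlapped and both Dex values lay above them. Its average densities were 1.87, 5.97, 1.45 and 4.29, and its listed widths 558, 2738, 985 and 2622 bp, in that order. After E2 this width came from 2 regions, of which the weaker reached 5.00.

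C5, C6 and C7 appeared in both lists with Dex and in neither list without it. C5 was the weakest site of the cluster, with 11.5 (8.46 to 15.3) after Dex, in 2 regions of 666 and 593 bp, and 17.02 (13.4 to 21.3) after Dex+E2, in 1 region of 1309 bp. Its average densities were 2.39 and 3.34. C6 reached 35.8 (30.2 to 42.0) after Dex and 22.7 (18.5 to 27.6) after Dex+E2, with averages of 6.59 and 4.47 over 1105 and 885 bp. C7 reached 34.8 (29.3 to 41.0) and 29.3 (24.4 to 34.8), with averages of 7.22 and 5.77 over 865 and 929 bp. C5 was the sole cluster site with a higher summit after Dex+E2 than after Dex alone.

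**Figure D2:**
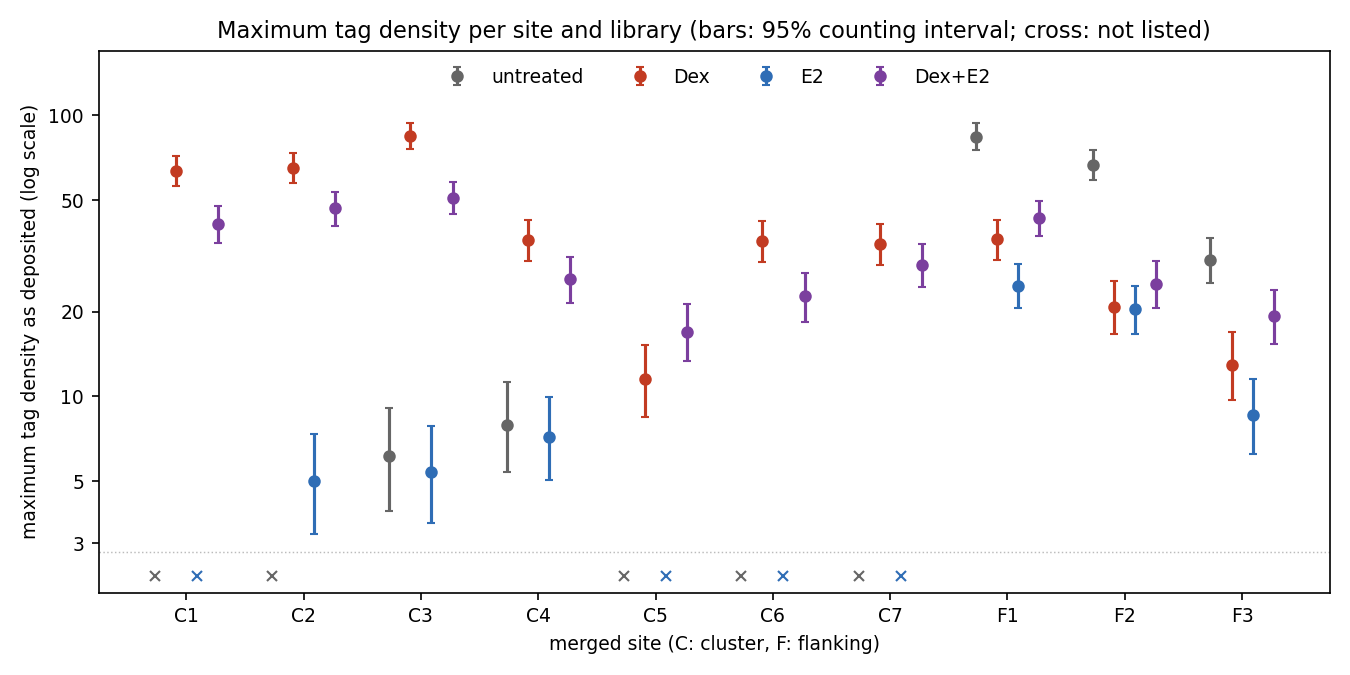
Maximum tag density as deposited (log axis) of cluster sites C1 to C7 and flanking sites F1 to F3 in the 4 libraries; points are single libraries, bars are 95% Poisson intervals of the summit tags, and crosses below the dotted line mark sites that a list does not hold. Both Dex libraries lie at 11.5 or above at every cluster site, against at most 7.91 in untreated and E2 cells, while at F1 to F3 the untreated library is highest.

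The flanking sites give a comparison within the same window. F1 had maximum densities of 84.2 (75.3 to 93.8) without hormone, 36.2 (30.6 to 42.6) with Dex, 24.8 (20.6 to 29.6) with E2 and 43.1 (37.2 to 49.7) with both. The untreated value stood above all hormone values, as it did for the median region of the genome. Its averages were 18.2, 7.75, 6.13 and 11.2, over 1638, 888, 894 and 838 bp. F2 had 66.8 (59.0 to 75.4), 20.8 (16.6 to 25.7), 20.4 (16.6 to 24.8) and 25.2 (20.7 to 30.3) in the same order, with averages of 16.9, 5.81, 5.87 and 7.26 over 959, 646, 701 and 661 bp. F3 was the weakest of these, with 30.6 (25.4 to 36.6), 13.0 (9.72 to 16.98), 8.60 (6.22 to 11.6) and 19.3 (15.4 to 23.8), averages of 5.29, 2.57, 2.19 and 5.16, and widths of 1467, 910, 635 and 649 bp. At all 3 sites the untreated region was the widest, in contrast to the cluster.

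**Figure D3:**
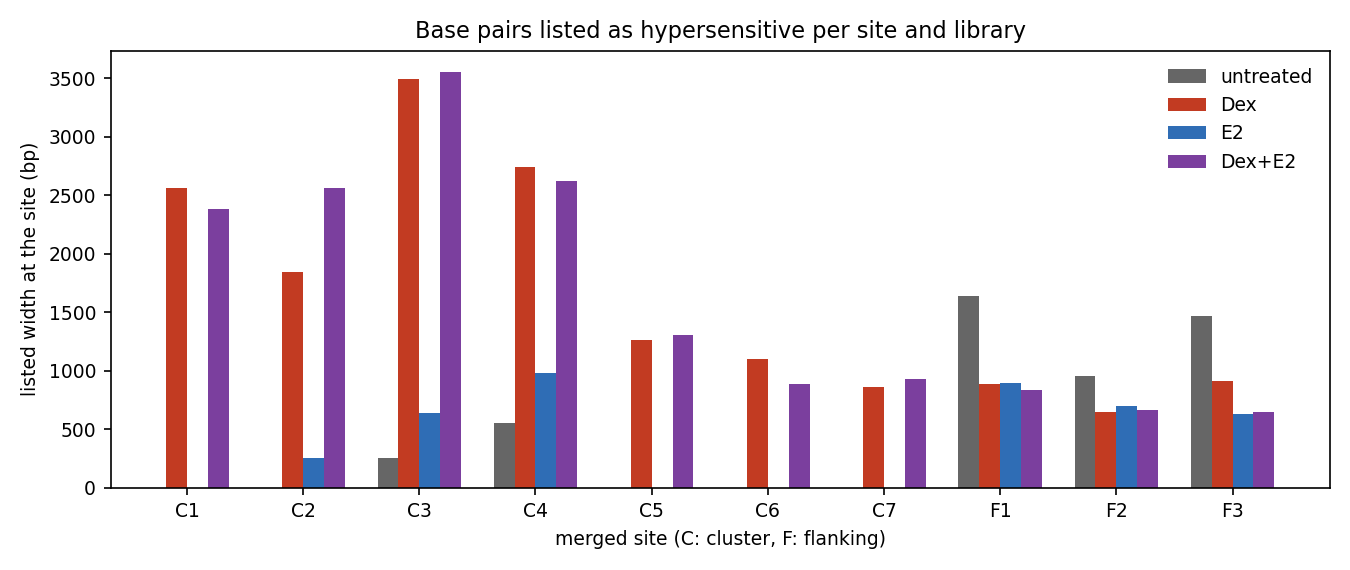
Base pairs listed as hypersensitive at each cluster and flanking site, summed over its regions, in the 4 libraries (bars start at 0; no bar means not listed). C3 covers 3495 bp after Dex and 3557 bp after Dex+E2 against 251 bp in untreated cells, whereas F1 is widest in untreated cells at 1638 bp.

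Summed over C1 to C7, 809 bp in 2 regions were listed in untreated cells, 13869 bp in 9 regions after Dex, 1882 bp in 5 regions after E2 and 14246 bp in 8 regions after Dex+E2. The mean density over these base pairs was 1.63, 8.24, 1.24 and 5.69. Co-treated cells thus had slightly more listed sequence than Dex-treated cells, at a lower mean density. The cluster held 12.4% of the window's listed base pairs in untreated cells, 76.2% with Dex, 38.7% with E2 and 82.2% with both. These sums depend on how much was listed in each library.

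Dex against no hormone gives the size of the change where both lists hold the site. Relative to the library medians, C3 was 28.3-fold higher after Dex (18.7 to 44.7, counting error), which as deposited is 13.8-fold. C4 was 9.33-fold higher (6.30 to 14.2), or 4.55-fold as deposited. Among all regions in all 4 lists, 0.628% reached a 4-fold and 6.69% a 2-fold higher density by the same measure. Of these 20687 regions, 1 had as high a ratio as C3, which was C3 itself, and 11 had as high a ratio as C4. The window was chosen for its Dex densities, and C3 is its densest site after Dex, so these ranks are no independent support. Low regions tended to have higher ratios: of 1218 such regions with an untreated density under 10, as at C3 and C4, 49.4% reached 2-fold and 4.68% reached 4-fold. The flanking sites F1, F2 and F3 stood at 0.88-fold (0.72 to 1.07), 0.64-fold (0.49 to 0.82) and 0.87-fold (0.62 to 1.21). Over the 4 window sites in all lists other than C3, C4 included, the median log2 ratio was -0.19.

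Dex+E2 and E2 are the other pair of libraries that differ in Dex. A single library stands for each condition, so a difference cannot be told apart from one between libraries, and the window was chosen with these values known. C3 was 6.25-fold higher (4.18 to 9.69), C2 6.18-fold (4.07 to 9.77) and C4 2.40-fold (1.63 to 3.59). Of all regions in all 4 lists, 0.0967% reached 4-fold and 1.78% reached 2-fold, and again 1 of them, C3 itself, had as high a ratio as C3. In the E2 library C3 and C4 were weak, at 5.40 and 7.20 against a median of 10.2. The share among regions as weak there is not given here. In both comparisons C3 had the higher ratio and C4 the lower. Among the flanking sites the ratios were 1.15 at F1 (0.91 to 1.45), 0.82 at F2 (0.62 to 1.08) and 1.48 at F3 (1.02 to 2.19).

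**Figure D4:**
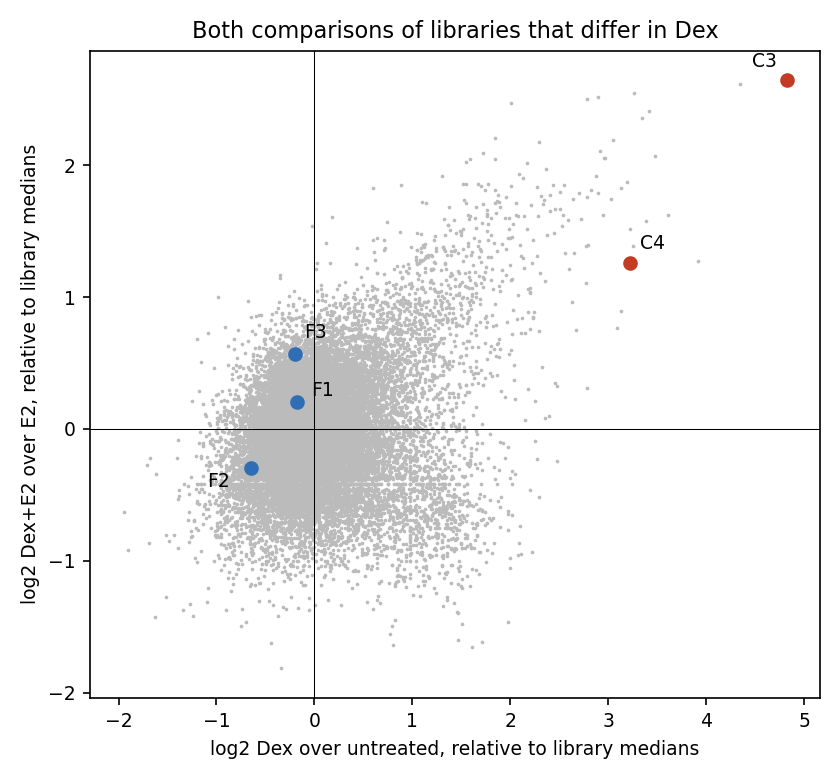
Log2 ratios of maximum density relative to library medians for Dex over untreated (x axis) and Dex+E2 over E2 (y axis) at the 20687 regions in all 4 lists (grey), with cluster sites in red and flanking sites in blue. C3 lies at the upper right end at 4.82 and 2.64, C4 at 3.22 and 1.26, and F1 to F3 lie in the main cloud of regions.

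Presence in the lists gave a similar description for the sites that have no fold. In the window, 6 of 18 merged sites (C1, C2, C5, C6, C7 and W4) appeared in both lists with Dex and not in the untreated list, against 2.28% of merged regions in the genome. Since the window was picked for such sites, nothing is read from this share. Sites C3, C4 and F1 to F3 were in all 4 lists, against 20% of merged regions in the genome.

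To see how often such sites lie close together elsewhere, a Dex-opened site was defined as one with a Dex density of at least 20 that was either missing from the untreated list or at least 4-fold higher than in it. This definition was set after the data were examined. It held for 373 sites in the genome, 144 missing from and 229 present in the untreated list, and 6 of them were in the window: every cluster site except C5, which at 11.5 fell below the density limit. The weakest included cluster site was C7 at 34.8. Joining Dex-opened sites no more than 10 kb apart gave 353 runs, of which 339 were single sites, 11 were pairs and 2 held 3 sites. The run C1 to C7, with 6 such sites, was the longest. This rank depended on the definition. With runs broken at gaps above 5 kb the 2 blocks of the cluster held 3 sites each, as many as the longest other runs, and with gaps up to 50 kb the cluster held 6 against 3. With a density limit of 10 the cluster held 7, and a run of 10 weaker sites with a median Dex density of 11.5 lay at chr1:173444008-173491594. With a 2-fold limit the cluster held 6, and a run of 16 lay at chr8:19918380-19963430, where median densities were 34.7 untreated and 41.3 after Dex. Choosing sites in the same way from Dex+E2 over E2 gave 248 sites, and the longest run, of 3, lay in this cluster, with 2 in the next longest. The window was chosen with these values known, so this rank is no independent support. Other limits are not reported for this pair.

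With E2 alone, values in both lists exist at 2 of the 7 cluster sites, C3 and C4. As deposited, the E2 maximum density at C3 was 0.88 of the untreated one (0.49 to 1.60) and at C4 0.91 (0.55 to 1.52), and both intervals included 1. At C3 the 2 values come from different places within the merged site. Its untreated region, chr18:9492566-9492817, overlapped neither E2 region, chr18:9491174-9491565 and chr18:9493650-9493901, and only the broad regions of the Dex libraries join them. At C4 the untreated region overlapped an E2 region. More of the cluster was listed after E2 than in untreated cells, 1882 against 809 bp, at a mean density of 1.24 against 1.63. Relative to the library medians the same sites were 2.60-fold (1.45 to 4.71) and 2.69-fold (1.62 to 4.49) higher, since the E2 median was far below the untreated one. The direction at C3 and C4 therefore depended on the scaling. Of all regions in all 4 lists, 7.89% were at least 2-fold higher by the relative measure. Among the 1218 with an untreated density under 10 the share was 75.3%, so the values of C3 and C4 were common for such weak regions. C2 was listed after E2 at 5.00 and not in untreated cells, with 25 tags at its summit. F1 to F3 were 0.87-fold (0.70 to 1.07), 0.90-fold (0.71 to 1.14) and 0.83-fold (0.57 to 1.18) of untreated, relative to the medians.

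Co-treatment against no hormone could be measured at C3 and C4 only. Here C3 was 16.3-fold higher (10.7 to 25.9) and C4 6.44-fold (4.30 to 9.91), relative to the medians, where 1.04% of all regions in all 4 lists were at least 4-fold higher. As deposited these folds were 8.34 and 3.30. Both sites were weak in untreated cells, and the share among regions as weak there is not given here. The flanking sites had ratios of 0.999 at F1 (0.831 to 1.198), 0.74 at F2 (0.58 to 0.92) and 1.23 at F3 (0.92 to 1.64).

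Adding E2 to Dex went with lower summits in most of the cluster. Relative to the medians, Dex+E2 over Dex was 0.61 at C1 (0.51 to 0.75), 0.68 at C2 (0.57 to 0.82), 0.58 at C3 (0.48 to 0.68) and 0.69 at C4 (0.54 to 0.89). It was 1.41 at C5 (0.96 to 2.07), 0.60 at C6 (0.46 to 0.78) and 0.80 at C7 (0.63 to 1.02). Thus 6 of 7 sites were lower, and for 5 of these the counting interval lay below 1. As deposited the same counts were found, and C5 was 1.48-fold higher (1.01 to 2.18). The 3 flanking sites were higher in the Dex+E2 library, by 1.13-fold at F1 (0.91 to 1.41), 1.15-fold at F2 (0.86 to 1.55) and 1.42-fold at F3 (0.99 to 2.03), though each interval included 1.

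**Figure D5:**
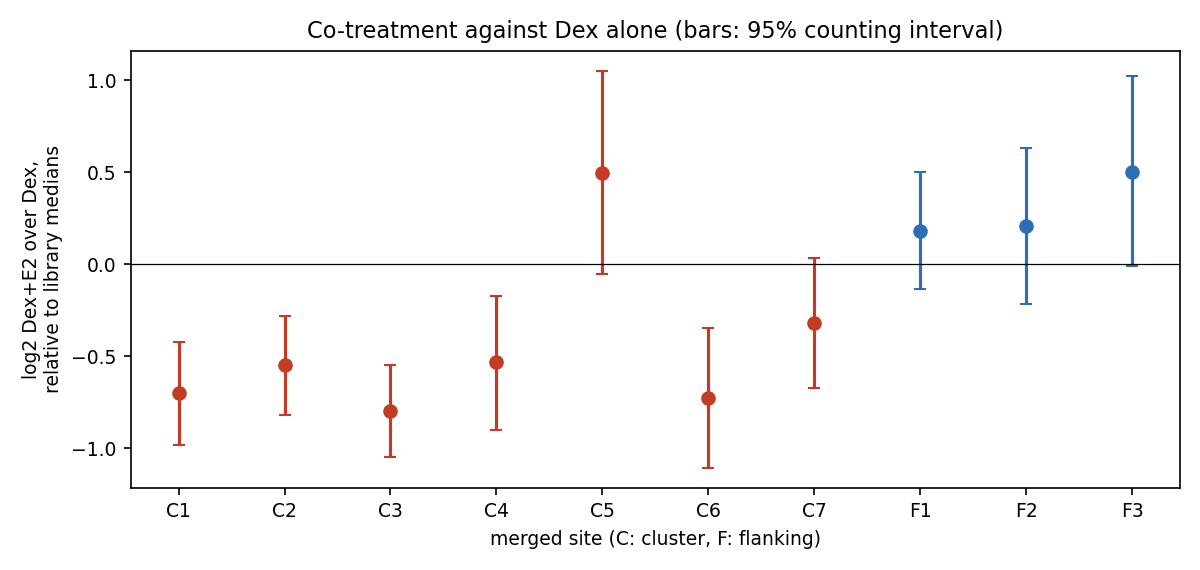
Log2 ratio of maximum density in the Dex+E2 over the Dex library, relative to library medians, at cluster sites (red) and flanking sites (blue); bars are 95% counting intervals and the line marks no difference. The other cluster sites lie between -0.80 and -0.32, C5 lies at 0.49, and F1 to F3 lie between 0.18 and 0.50.

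Lower values with co-treatment were not particular to these sites. Of the 29066 merged regions in both lists, 56.7% were lower by this measure, and of the 373 Dex-opened sites 306 (82.0%) were, with a median log2 ratio of -0.41. Those sites were chosen by a high value in the Dex library itself. Among 245 sites chosen instead by the Dex+E2 and E2 libraries, 165 (67.3%) were lower, with a median of -0.24. The value at C3, -0.80, was reached or passed by 65 of the 373 (17.4%) and by 13 of the 245 (5.31%). With 1 library of each kind the difference cannot be assigned to E2.

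The remaining 8 sites of the window were weak and lay at lower coordinates than the cluster. W5, chr18:9387631-9388396, was in every list except Dex, as were 1.69% of merged regions in the genome. Its maximum density was 15.6 (11.9 to 19.99) untreated, 6.40 (4.38 to 9.03) after E2 and 7.94 (5.53 to 11.04) after Dex+E2, with averages of 3.39, 1.42 and 1.94 over 765, 502 and 571 bp. Relative to the medians its E2 and Dex+E2 values were 1.21 (0.77 to 1.89) and 0.996 (0.638 to 1.53) times the untreated one. W4, chr18:9380509-9381202, was in both Dex lists and no other. It reached 9.31 (6.59 to 12.8) after Dex, at an average of 2.12 over 693 bp, and 5.90 (3.85 to 8.64) after Dex+E2, at an average of 1.85 over 361 bp.

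The other 6 sites were each in 1 list, as were 58.8% of merged regions in the genome. The Dex list alone held W2 (chr18:9351871-9352206), with a maximum of 5.88, an average of 1.46 and a width of 335 bp. It also held W3 (chr18:9370074-9370453), with 6.37, 1.34 and 379 bp, and W7 (chr18:9399907-9400390), with 9.55, 2.26 and 483 bp. The untreated list alone held W6 (chr18:9390179-9390612), with 5.36, 1.02 and 433 bp, and W8 (chr18:9451184-9451658), with 7.40, 1.96 and 474 bp. W1 (chr18:9310646-9310897) was in the E2 list alone, with 4.399, 0.91 and 251 bp. Their summits held 21 to 39 tags, and with 1 library per condition their absence from the other lists could not be tested.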

How the data were processed

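DNase-seq was available for 4 treatments of 7438 cells, with 1 library each, and samples were grouped by the treatment in their labels. The submitters' processing notes name build mm9 and CASAVA 1.8, without its role. How reads were aligned and regions called is not given in the sources used here. The authors deposited 1 list of regions per library and, per the file headers, a maximum and average tag density for each, a signal scaled within the library to an unstated total. The deposited Z score and p-value of each region refer to its own library and were not compared.

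All 47 regions overlapping the window by at least 1 bp were kept, and regions of the 4 lists that overlapped or touched were merged. A merged site has in each library the highest maximum, the summed width and the width-weighted average density of its regions. Values of 1 merged site can therefore come from regions that do not overlap each other. Tags were maxima divided by the step of the library, of which 100% of maxima were whole multiples within 0.02 tags. Steps give relative depths of 1.04 (Dex), 1.28 (E2) and 1.12 (Dex+E2) times untreated only if the unstated total was common. Intervals on densities are exact Poisson and those on ratios exact conditional binomial 95% intervals. They treat each tag as an independent molecule and each maximum as a count at a fixed place, so only counting error is covered. That a maximum was picked within regions that passed a threshold is not allowed for. Values were read for each merged site of the window, those of C1 to C7, F1 to F3 and all others being printed. The window, the site lists and the definitions were chosen with earlier results of these data known. No p-value was computed, since no group has replicates from which to estimate a spread. Functions were tested on simulated data. Sequences on this chromosome and gene positions in mm9 were not used here. Alternatives covered merging within 150 bp, list length, a density minimum of 10, a window narrowed by 50 kb, the density measure and the scaling. Matplotlib 3.10.9, SciPy 1.17.1, pandas 2.3.3 and NumPy 2.4.6 were run under Python 3.11.15.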

Additional observations from a re-analysis of the deposited data

Results flagged for a closer look

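At the 5 window sites found in all 4 lists, the log2 ratio of the library with E2 to the one without it, relative to the library medians, had opposite signs in the absence and presence of Dex. At C3 and C4 the E2 library was above the untreated one (log2 1.38 and 1.43) and the Dex+E2 library below the Dex one (-0.80 and -0.53), and these 4 counting intervals excluded 0. Neither direction was particular to C3 and C4. Of the 1218 regions in all 4 lists with an untreated density under 10, 75.3% were at least 2-fold higher with E2 than untreated by this measure. Of the 373 Dex-opened sites, chosen by a high Dex value, 82.0% were lower in the Dex+E2 than in the Dex library. At C3 the E2 and untreated regions did not overlap, so its ratio without Dex compares different places within the merged site. The ratio with Dex minus that without was -2.18 at C3 and -1.96 at C4. At the flanking sites the signs were the other way round, with differences of 0.38 at F1, 0.36 at F2 and 0.77 at F3, but there the counting intervals of all 6 ratios included 0, so these signs lie within counting error. These differences were not tested, and with 1 library per condition they cannot be assigned to E2. As deposited, E2 was below untreated and Dex+E2 below Dex at C3 and C4, so the signs were alike there, with differences of -0.55 and -0.33, while at F1, F2 and F3 they stayed opposite, with differences of 2.01, 1.99 and 2.40.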

How the results depend on the processing

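No paired analysis was possible because each condition has 1 library, and for the same reason no replicate could be left out. The number of window sites in both Dex lists and not in the untreated one was 6, and 7 with lists of equal length or a density of at least 10. With that density limit the 7 were C1 to C7. W4 dropped out, and the untreated regions of C3 and C4, at 6.12 and 7.91, were no longer counted. C3 and C4 would then have no fold of Dex over untreated. It was 3 when regions within 150 bp were merged, which joins neighbouring cluster sites. At C3, Dex over untreated had a log2 ratio of 4.82, against 3.79 as deposited and 8.49 for density summed over the listed width. Dex+E2 over E2 was 2.64, and 4.46 for the summed density. Dex+E2 over Dex was -0.80, and -1.09 when scaled to F1, F2 and F3, an alternative chosen after seeing the data. E2 over untreated, from regions that did not overlap, was 1.38, turned to -0.18 as deposited and reached 3.23 for the summed density. The median over the other window sites in all 4 lists, for Dex over untreated, was -0.19, with -1.23 as deposited and -0.64 for the summed density. The share of all such regions in the genome at least 2-fold higher after Dex was 6.69%, with 0.551% as deposited, 14.4% at 1.5-fold and 0.628% at 4-fold. Summed density is the average density times the listed width. At C3 the width ratio was 13.9 for Dex over untreated, 5.54 for Dex+E2 over E2 and 2.56 for E2 over untreated. The cause of these shifts beyond the rescaling and the listed width was not tested. Other alternatives moved these values by less than their counting interval, or a count by less than 1.5 times, except the runs of sites described above.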

Other observations

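The 2 other runs of 3 Dex-opened sites in the genome had patterns of their own. At chr17:28649115-28656323, a run of 7.21 kb, Dex densities ran from 22.8 to 63.9 and Dex+E2 densities from 8.62 to 54.0, and none of the 3 sites was in the E2 list. At chr2:167669833-167686723, a run of 16.9 kb, Dex densities ran from 34.5 to 49.0 and Dex+E2 densities from 38.1 to 47.0, and 2 of the 3 sites were in the E2 list, at up to 9.20. In the cluster near Ccny, 3 of the 6 Dex-opened sites were in the E2 list, at up to 7.20. Differences between these runs were not tested.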
